A study of Mus musculus with 12 samples.

Results

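The lungs of newborn mice were compared by the genotype of the mother on the day of birth (PN0), with 1 Affymetrix array for a wild-type (WT) mother and 1 for an Abcb11-/- mother. Both arrays held lung RNA of Abcb11+/- pups on the C57BL/6 background, so that the pups carried the same genotype whichever parent lacked the gene. The WT mother had been mated with an Abcb11-/- male and the Abcb11-/- mother with a WT male, so the mother's genotype and the parent from which the intact allele came cannot be told apart. Abcb11 encodes the bile salt export pump of the liver, and female mice without it are cholestatic. The other 4 lung arrays of the series, 1 for each mother at embryonic day 17.5 (E17.5) and 18.5 (E18.5), are used here for reference, out of 12 arrays in all. The study gives a number of animals for its measurements of lung expression but ties it to no array, and the labels do not say how many pups each array stands for. With 1 array for each mother there is no replicate at PN0, so the values below are descriptions, no test was made, and no difference can be set against the spread between litters.

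A gene was taken up when its log2 values on the 2 PN0 arrays were at least 2-fold apart and the brighter array reached a log2 value of 7, with 1 probe set for each gene, the brightest over the 6 lung arrays. Of 17097 genes, 5412 reached that brightness at PN0, and 79 of those were at least 2-fold apart. They were 51 genes higher with the Abcb11-/- mother (0.942% of 5412) and 28 genes lower (0.517%). By the same rule 9 genes were higher (0.165%) and 2 lower (0.0366%) of 5463 at E18.5. At E17.5 there were 80 higher (1.43%) and 14 lower (0.25%) of 5590, on arrays where the albumin gene Alb of hepatocytes was at 9.05 with the WT mother and 13.01 with the Abcb11-/- mother. Pairs of log2 values below always give the WT mother first, and 2-fold or 1.5-fold apart means by at least that much. The 79 genes were chosen by the PN0 difference itself, so its size is given for each gene as a description and supports nothing further.

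At birth the lung clears its liquid, fills with air and is exposed to a sudden rise in oxygen, while its epithelium switches on sodium uptake and its tissue turns from the glucose and glycogen of foetal life towards fat as a fuel. Oxygen is sensed by prolyl hydroxylases, which mark the hypoxia-inducible factors (HIF) for destruction when oxygen is ample. When oxygen is scarce the factors persist and switch on genes of glucose uptake and glycolysis, and genes of the prolyl hydroxylases themselves. A separate, fast response is made by immediate-early genes, which are transcribed within minutes of stretch, growth factors, injury or handling without the need for new protein.

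Several lung markers were bright on both PN0 arrays, but not all: the lung transcription factor gene Nkx2-1 was dim (3.82 and 3.23), and Foxj1 of ciliated cells was at 7.02 and 6.65. Ager, a surface receptor of type I alveolar cells, had log2 values of 12.58 with the WT mother and 12.69 with the Abcb11-/- mother, and the club cell secretoglobin Scgb1a1 had 12.70 and 12.52. Abcb11 itself was dim in the lung, at 3.20 and 3.13, on arrays whose medians were 3.65 and 3.65. The X-inactivation transcript Xist (8.95 and 9.63) and the Y-linked Eif2s3y (8.06 and 7.37) were both present on both arrays. Both sexes were thus represented, Xist being higher and Eif2s3y lower with the Abcb11-/- mother. Over 4 measured sex-linked genes the median difference was -0.15 at PN0 and -1.31 at E18.5. At E18.5, 1 of the 4 was 1.5-fold higher with the Abcb11-/- mother and 3 were lower, so the 2 arrays used as the baseline were also unlike. The part of the sexes in the differences and in the steps from E18.5 was not tested.

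A yardstick for 2 arrays of the same kind came only from the liver of C57BL/6 females aged 1.5 months in the same series, another tissue and age, with 3 mice per genotype (WT and Abcb11-/-). Among genes whose brighter array reached 7, the 3 pairs of WT livers held 16, 23 and 33 genes at least 2-fold apart, and the 3 pairs of Abcb11-/- livers held 98, 101 and 178. The 79 genes of the PN0 lung lie between these ranges. The standard deviation of the log2 differences over bright genes was 0.32 at PN0 and 0.20 at E18.5, against 0.20 to 0.28 for pairs of WT livers and 0.35 to 0.45 for pairs of Abcb11-/- livers. Single genes near the 2-fold limit thus carry little weight here, and the lung has no such pairs of its own.

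**Figure D1:**
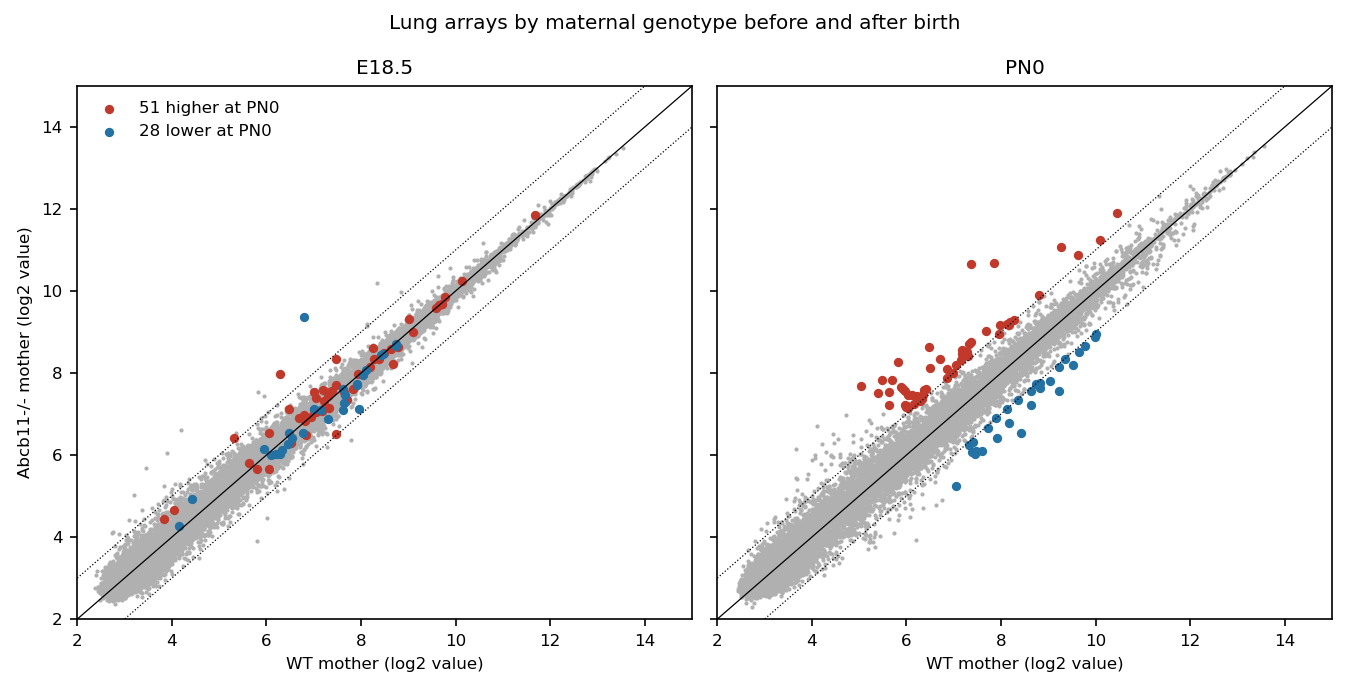
Log2 values of 17097 genes on the lung array of the Abcb11-/- mother (vertical axis) against that of the WT mother (horizontal axis) at E18.5 (left) and PN0 (right), with dotted lines at 2-fold. Red points are the 51 genes higher and blue points the 28 genes lower at PN0, and most of them lie between the dotted lines at E18.5.

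The genes higher with the Abcb11-/- mother fell into a few functional groups, put together here after the values were seen. The group of early-response genes had 14 members, with log2 differences of 1.02 to 3.31. The zinc finger transcription factor Egr1 was at 6.49 with the WT mother and 7.12 with the Abcb11-/- mother at E18.5, then at 7.36 and 10.67 at PN0, where the arrays were 9.94-fold apart. Nr4a1, an orphan nuclear receptor, was at 6.83 and 6.49 at E18.5, then 7.86 and 10.67 at PN0 (7.04-fold). Egr1 stood 0.87 above its E18.5 level on the log2 scale with the WT mother and 3.55 above it with the Abcb11-/- mother, and Nr4a1 stood 1.03 and 4.18 above.

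Members of the AP-1 and ATF families of leucine zipper factors shared this shape. Fos was at 7.71 and 7.34 at E18.5, then 9.28 and 11.07 at PN0. Junb, a partner of Fos, went from 5.62 and 5.82 to 6.51 and 8.11. Atf3, a stress-induced factor, was at 3.83 and 4.45 at E18.5, then 6.48 and 8.64 at PN0. On each of these the newborn lung was above the E18.5 lung with either mother, and the step was larger with the Abcb11-/- mother. Maff, a small Maf factor, was different: it stood at 8.67 and 8.22 at E18.5, then 8.16 and 9.18 at PN0, so that the WT array was lower after birth and the other higher.

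Other early-response members were a second nuclear receptor of the same family, Nr4a2 (5.92 with the WT mother and 7.61 with the Abcb11-/- mother at PN0), and Apold1, an endothelial early-response gene (5.69 and 7.83). Btg2, an antiproliferative gene, was at 9.63 and 10.87, and Ccn1, a secreted matrix-associated signal, at 10.09 and 11.24. Over averaged probe sets the difference of Nr4a2 fell from 1.69 to 0.58. Of the 4 genes only Btg2 had an E18.5 level (9.71 and 9.70) as high as its PN0 level with the WT mother. Ppp1r15a, which directs a phosphatase to the translation factor eIF2 after stress, was at 7.04 and 8.21. Nfil3, a basic leucine zipper repressor, was at 8.12 and 9.21, the small GTP-binding protein gene Gem at 6.37 and 7.58, and Ankrd1, a nuclear ankyrin repeat factor, at 5.63 and 7.23. Over the 14 genes, 10 were higher at PN0 than at E18.5 with the WT mother and all 14 with the Abcb11-/- mother. The median step from one stage to the next was 0.88 and 2.13.

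A longer list of genes of this response also held genes that the 2-fold rule did not take up. At a limit of 1.5-fold, 20 of its 52 measured genes were higher with the Abcb11-/- mother and 0 lower, where 4.16% of all 17097 genes were higher by that much and 2.88% lower. Of the 20, 10 were members that the rule had already taken up by the same difference, so those 10 add nothing here. At E18.5, 4 of the 52 were higher and 2 lower, against 2.13% and 1.26% of all genes. The median log2 difference at PN0 was 0.43, against 0.01 over all genes. Nr4a3, the remaining member of the Nr4a family, was dim at E18.5 (3.37 and 3.14) and reached 3.66 and 6.15 at PN0. Its difference of 2.50 was 0.65 when all its probe sets were averaged. Fosb, a relative of Fos, was at 3.75 and 4.86, Ier2 at 9.05 and 9.95 and Csrnp1 at 8.01 and 8.92. The Krüppel-like factor Klf4, which had a higher value after birth with either mother, was at 10.93 and 10.83 and so showed no gap of this kind. Compared with E18.5, 19 of the 52 stood 1.5-fold or more higher at PN0 with the WT mother and 35 with the Abcb11-/- mother, against 5.03% and 2.72% of all genes. Feedback inhibitors of MAP kinase signalling, which early-response signalling induces, included 4 of 20 genes 1.5-fold higher and 0 lower, with a median of 0.23. Among them was the phosphatase gene Dusp1 (11.34 and 12.32), while Spry1, a receptor signalling inhibitor, was at 10.26 and 9.74.

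The upstream bases of 3 early-response members are shown because each holds the palindrome TGACGTCA, the cyclic AMP response element that CREB and ATF proteins are known to bind. The sequences are from RefSeq on GRCm38.p6, 250 bases up to the start of the gene, written 5′ to 3′ on the strand of the gene with the element in capitals.
Btg2 (chr1:134079156-134079405, - strand): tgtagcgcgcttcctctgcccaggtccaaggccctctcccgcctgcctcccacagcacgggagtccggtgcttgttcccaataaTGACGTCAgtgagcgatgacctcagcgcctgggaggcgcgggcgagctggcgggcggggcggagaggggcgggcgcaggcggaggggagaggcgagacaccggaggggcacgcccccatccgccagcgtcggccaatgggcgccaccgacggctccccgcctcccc
Maff (chr15:79347270-79347519, + strand): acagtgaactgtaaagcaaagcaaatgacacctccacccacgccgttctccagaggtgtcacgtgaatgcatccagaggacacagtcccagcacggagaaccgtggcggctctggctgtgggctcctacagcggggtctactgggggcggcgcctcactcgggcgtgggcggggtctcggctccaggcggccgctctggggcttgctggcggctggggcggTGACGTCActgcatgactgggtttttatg
Ppp1r15a (chr7:45526269-45526518, - strand): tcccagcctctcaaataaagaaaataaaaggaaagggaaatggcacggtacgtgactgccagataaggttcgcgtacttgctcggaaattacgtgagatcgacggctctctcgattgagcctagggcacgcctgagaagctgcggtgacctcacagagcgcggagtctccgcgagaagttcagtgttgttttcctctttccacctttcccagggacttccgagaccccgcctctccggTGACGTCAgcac

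Promoter entries were matched for 38 of the 51 higher genes and 20 of the 28 lower genes, some with several start sites. The element, which reads the same on both strands, was found in 4 of the 38 (Btg2, Maff, Ppp1r15a and Ell2, which encodes an elongation factor) and in 0 of the 20, and in 1.55% of all 32851 windows of that length. The AP-1 site TGAGTCA, searched on both strands like the motifs that follow, was found in Arhgap18 of the higher genes and in Cldn4 and Scel of the lower genes, against 4.46% of all windows. The EGR site GCGTGGGCG was found in Maff alone (0.536% of all windows), and the CArG box, the site of serum response factor, in Stbd1 alone (1.47%). A match is a stretch of letters and says nothing of binding.

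Genes of oxygen sensing, glucose uptake and glycogen made up the next group, with 8 members and a different course. Egln3, a prolyl hydroxylase that is itself switched on by HIF, was at 8.38 and 8.34 at E18.5, then 5.03 and 7.68 at PN0 (6.30-fold). Slc2a1, the glucose transporter of most foetal cells, went from 9.09 and 8.99 to 7.68 and 9.04, and Hk2, the hexokinase that traps the glucose, from 8.64 and 8.58 to 7.14 and 8.31. At E18.5 the mothers differed by less than 0.1 in each of the 3 genes. At PN0 the level was far lower than before birth with the WT mother and close to it, or less reduced, with the Abcb11-/- mother.

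Ppp1r3b and Ppp1r3c encode subunits that bring protein phosphatase 1 to glycogen and favour its synthesis. Ppp1r3b was at 9.71 and 9.70 at E18.5, then 5.81 and 8.26 at PN0 (5.45-fold), and Ppp1r3c at 10.13 and 10.25 and then at 7.95 and 8.96. In both genes the level after birth was lower with either mother, and more so with the WT mother. Stbd1, a glycogen-binding protein, was at 8.19 and 9.24 at PN0 after 9.59 and 9.58. Eno1b, at 8.28 and 9.29 after 9.65 and 9.67, is an enolase copy nearly identical to Eno1, and its probes may read both. Bhlhe40, a repressor of the clock that is also a HIF target, was the exception, since it was already apart at E18.5 (7.47 and 8.33) as at PN0 (7.18 and 8.57). Over the 8 genes the median step from E18.5 to PN0 was -1.45 with the WT mother and -0.36 with the Abcb11-/- mother.

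The longer lists held further genes of this kind. Of 40 measured genes of oxygen sensing and HIF targets, 11 were 1.5-fold higher with the Abcb11-/- mother and 1 was lower. Over all genes the shares were 4.16% and 2.88%. Of the 11, 3 were the members Egln3, Slc2a1 and Bhlhe40, which the rule had taken up by the same difference and which add nothing here. The list median was 0.29 (-0.07 at E18.5). Ankrd37, a HIF target, was at 4.71 and 6.97 at PN0 after 7.40 and 7.78, and missed the brightness limit. Ndrg1, a hypoxia-responsive gene, was at 7.70 and 8.68, the cytokine gene Mif at 8.68 and 9.64, and the adenylate kinase gene Ak4 at 5.17 and 6.25, with a difference of 1.08 that was 0.28 over averaged probe sets. Other well-known HIF targets were closer together. The growth factor gene Vegfa was at 9.44 and 9.64, the vasodilator peptide gene Adm at 7.06 and 7.39, and the mitophagy receptor gene Bnip3 at 10.16 and 10.43. Epas1, which encodes the HIF subunit of endothelium and type II cells, was lower with the Abcb11-/- mother (11.71 and 11.13). Hif1a was at 9.53 and 9.84.

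Of 23 measured genes of glycogen metabolism, 4 were 1.5-fold higher and 0 lower (against 4.16% and 2.88% of all genes), with a median of 0.29. The fourth, beside the 3 members above, was the muscle glycogen phosphorylase gene Pygm (3.45 and 4.92). The glycogenin gene Gyg, the primer of glycogen, was at 11.17 and 11.75, and the liver phosphorylase gene Pygl at 9.25 and 9.66. In 21 measured genes of glycolysis and glucose uptake the median step from E18.5 to PN0 was -0.69 with the WT mother and -0.12 with the Abcb11-/- mother.

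Upstream bases of 4 members of this group are shown with ACGTG, the core that HIF is known to bind, in capitals on either strand (CACGT where it lies on the other strand). They are from the same source and of the same length as those above.
Egln3 (chr12:54203875-54204124, - strand): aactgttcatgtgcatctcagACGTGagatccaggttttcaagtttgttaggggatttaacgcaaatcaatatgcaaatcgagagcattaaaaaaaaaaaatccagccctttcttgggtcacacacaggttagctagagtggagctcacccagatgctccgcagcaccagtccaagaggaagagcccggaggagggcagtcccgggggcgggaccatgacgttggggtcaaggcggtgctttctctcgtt
Slc2a1 (chr4:119108495-119108744, + strand): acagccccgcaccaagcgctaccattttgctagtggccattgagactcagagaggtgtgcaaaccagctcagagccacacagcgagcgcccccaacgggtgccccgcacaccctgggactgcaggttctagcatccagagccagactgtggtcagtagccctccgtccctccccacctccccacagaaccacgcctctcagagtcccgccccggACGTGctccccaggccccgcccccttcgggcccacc
Hk2 (chr6:82774455-82774704, - strand): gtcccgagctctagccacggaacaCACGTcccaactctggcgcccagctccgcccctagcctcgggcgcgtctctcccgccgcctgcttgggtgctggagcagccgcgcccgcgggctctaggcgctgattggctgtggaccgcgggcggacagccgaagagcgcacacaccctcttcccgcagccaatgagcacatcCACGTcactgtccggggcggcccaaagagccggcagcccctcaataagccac
Ppp1r3c (chr19:36736605-36736854, - strand): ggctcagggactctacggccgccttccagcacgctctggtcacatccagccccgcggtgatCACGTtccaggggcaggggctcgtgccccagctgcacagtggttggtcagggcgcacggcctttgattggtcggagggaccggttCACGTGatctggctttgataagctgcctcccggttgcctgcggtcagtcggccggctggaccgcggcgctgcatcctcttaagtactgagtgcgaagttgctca

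The core was found in 4 of the 5 members of this group with a promoter entry, in 10 of the 38 higher genes and in 6 of the 20 lower genes, and in 16.6% of all windows. CACGTG, an E-box that holds the core, was found in 3 of the 38 higher genes (Kcne4, Maff and Ppp1r3c) and in 4 of the 20 lower genes (Nceh1, Sgpp2, Bmp6 and Fam189a2), against 6.02% of all windows. A core this short occurs often, and both the higher and the lower genes held it.

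The mesenchyme, its matrix and guidance signals formed a group of 10 genes. Lum, a leucine-rich proteoglycan that binds collagen, was at 7.39 and 7.55 at E18.5, then 5.49 and 7.84 at PN0 (5.11-fold). Its relative Dcn went from 8.77 and 8.63 to 7.37 and 8.74. Unc5c, a netrin receptor, went from 7.34 and 7.53 to 5.39 and 7.51 (4.33-fold). All 3 were lower after birth with the WT mother and nearly level with the Abcb11-/- mother.

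Islr, a mesenchymal surface protein gene, was at 5.96 and 7.56 at PN0, the heparin-binding growth factor gene Ptn at 6.03 and 7.47, and the Wnt modulator gene Sfrp2 at 6.02 and 7.20. Slit2, the guidance ligand of the Robo receptors, was at 8.80 and 9.91. The scavenger receptor gene Colec12 (6.12 and 7.46), the secreted protein gene Ccdc3 (6.23 and 7.44) and the basement membrane gene Frem2 (6.28 and 7.31) completed the group. All 10 genes were lower at PN0 than at E18.5 with the WT mother, with log2 steps of -1.94 to -0.67, while with the Abcb11-/- mother the steps ran from -0.13 to 0.46. Of 21 measured fibroblast and matrix genes 4 were 1.5-fold higher with the Abcb11-/- mother and 0 lower (against 4.16% and 2.88% of all genes). Of the 4, 2 were the members Lum and Dcn. The list had a median of 0.22 and a summed level of 14.86 and 15.07 (log2 of the summed linear values). Fewer cells of a type and less RNA per cell cannot be told apart in whole lung.

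In a list of lung development factors and signals, 8 of 45 measured genes were 1.5-fold higher with the Abcb11-/- mother and 1 was lower. Over all genes the shares were 4.16% and 2.88%. The list median was 0.13, and Slit2 was the one that met the rule. Gdf10, a secreted factor of the BMP family, was at 6.64 and 6.60 at E18.5, then 4.55 and 6.40 at PN0. Fgf7 was at 5.29 and 5.54 and then at 4.24 and 5.23. Robo1, a receptor for Slit2, went from 7.67 and 7.86 to 7.18 and 8.01. Other signals of the list were closer together at PN0, such as Wnt5a (7.35 and 7.52) and Tgfb2 (5.96 and 6.19), which were lower than at E18.5 with either mother. Compared with E18.5, 11 of the 45 stood 1.5-fold or more lower at PN0 with the WT mother and 4 with the Abcb11-/- mother, where 6.46% and 3.64% of all genes did.

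Edn1, Hdc and Pde4b, which act in vascular or inflammatory signalling, were also among the 51. Edn1, the vasoconstrictor endothelin, was the one of the 51 higher genes most apart at E18.5, at 6.30 and 7.98, and it stayed apart at PN0 (7.32 and 8.71). Kcne4, a potassium channel subunit, was likewise apart at E18.5 (5.31 and 6.41) and PN0 (5.63 and 7.54). These 2 genes alone of the 51 were 2-fold higher at both of these stages. Hdc, the histamine-forming enzyme, was at 7.27 and 8.51, and Pde4b, a phosphodiesterase that breaks down cyclic AMP, at 7.98 and 9.16. The list of inflammation and chemokine genes did not lie to one side, with 2 of 38 measured genes 1.5-fold higher (the dim Cxcl2 and Cxcl14) and 2 lower (Saa3 and Ccl6), and a median of 0.07. Among 10 measured mast cell genes Cpa3 (3.77 and 4.80) and Cma1 (3.33 and 4.08) were also 1.5-fold higher, while the stem cell factor receptor gene Kit was at 8.37 and 7.85. The summed level of the mast cell list was 9.86 and 9.87. It came mostly from Hdc, Kit and Gata2 (8.55 and 7.99), of which Hdc was higher and the others lower. The dim Cpa3 and Cma1 added little, so the sum is no measure of mast cells.

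The remaining higher genes were of mixed kind. Scd1, which desaturates fatty acids, was at 11.69 and 11.86 at E18.5, then 10.45 and 11.90 at PN0. Of 36 measured genes of sterol and fatty acid synthesis, 6 were 1.5-fold higher, Scd1 among them, and 0 lower. Over all genes the shares were 4.16% and 2.88%, and the list median was 0.19. Acoxl, a relative of peroxisomal acyl-CoA oxidase, was at 6.72 and 8.34. Aqp4, a water channel, was at 6.33 and 7.38, the bicarbonate transporter gene Slc4a5 at 6.41 and 7.61, and the magnesium transporter relative Nipal1 at 6.35 and 7.47. The slow myosin gene Myh7 was at 6.99 and 8.00, and it moved with a list of heart muscle genes described below. Phex, a membrane peptidase, was at 5.89 and 7.65 (0.91 apart over averaged probe sets). Also higher were the glutaminyl cyclase gene Qpct (7.18 and 8.45), Prcd (5.97 and 7.23), the non-coding Hoxb5os (6.86 and 8.11) and the delta-catenin gene Ctnnd2 (5.99 and 7.17). The nuclear pore gene Nup210 was at 6.03 and 7.16, Arhgap18 at 7.30 and 8.42, the interferon-induced protease gene Usp18 at 6.17 and 7.24 and Ell2 at 6.87 and 7.88. In all 10 genes left outside the named groups, Myh7 included, the WT array was lower at PN0 than at E18.5.

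**Figure D2:**
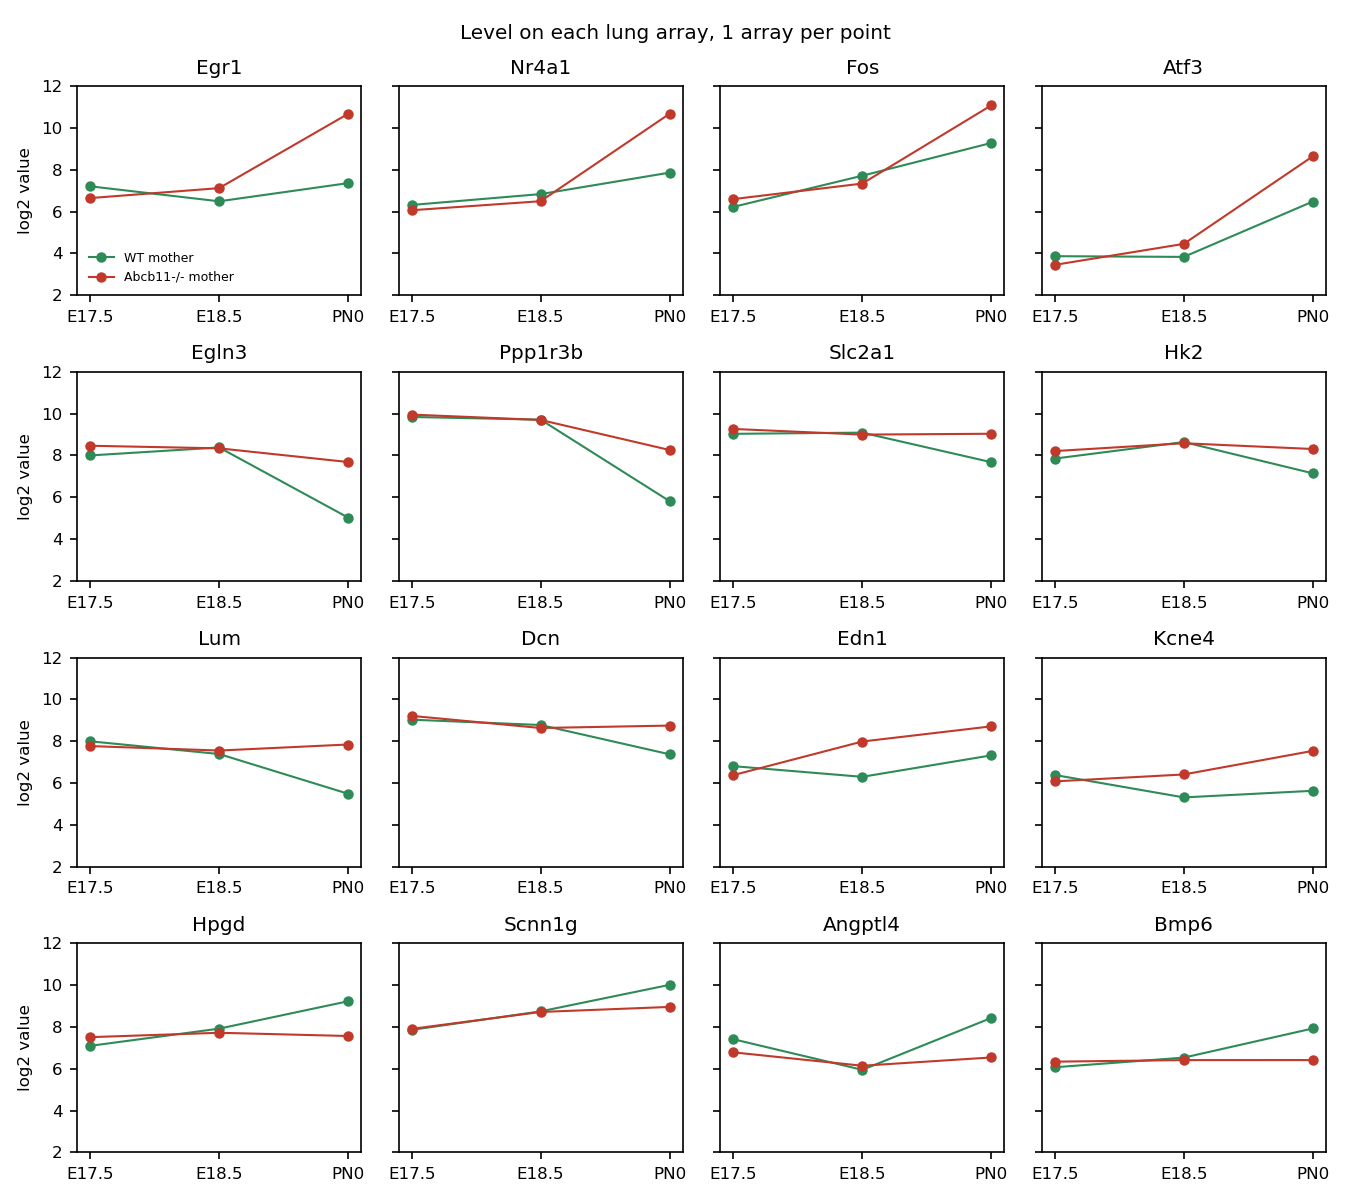
Log2 values of 16 of the 79 genes on each lung array (vertical axis) at E17.5, E18.5 and PN0 (horizontal axis), with the WT mother in green and the Abcb11-/- mother in red, 1 array per point and different animals at each stage. Egr1, Nr4a1, Fos and Atf3 part through the red line at PN0, whereas Egln3, Ppp1r3b, Slc2a1, Hk2, Lum and Dcn part through the green one, and Hpgd and Bmp6 are higher at PN0 only on the green line.

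Of the 28 genes lower with the Abcb11-/- mother, 6 serve the use of fatty acids or the breakdown of lipids. Angptl4, an inhibitor of lipoprotein lipase that fasting and PPAR receptors induce, was at 5.95 and 6.14 at E18.5, then 8.43 and 6.54 at PN0, a log2 difference of -1.89. Cpt1a, which commits fatty acids to mitochondria, went from 8.05 and 7.95 to 9.22 and 8.15. Both genes were higher after birth with the WT mother, and little so with the Abcb11-/- mother.

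The thioesterase genes Acot1 (9.65 and 8.50) and Acot2 (9.52 and 8.19) are near-identical neighbours whose probes may read each other, and they count as 1 observation rather than 2. Nceh1, a cholesterol ester hydrolase, was at 8.37 and 7.34, and Sgpp2, which removes phosphate from sphingosine-1-phosphate, at 9.04 and 7.81. The median step across birth over the 6 genes was 1.19 with the WT mother and 0.22 with the Abcb11-/- mother. Of 37 measured genes of fatty acid oxidation and PPAR targets, 7 were 1.5-fold lower with the Abcb11-/- mother and 2 higher. Over all genes the shares were 2.88% lower and 4.16% higher. Among the 7 were 4 members (Angptl4, Cpt1a, Acot1 and Acot2), and the list median was -0.08. Slc25a20, the carnitine carrier that works after Cpt1a, was at 8.84 and 8.02, and Cyp4b1, a cytochrome P450 of the airway, at 8.98 and 8.11. Compared with E18.5, 10 of the 37 stood 1.5-fold or more higher at PN0 with the WT mother and 3 with the Abcb11-/- mother, and over all genes, as given above, such steps were also more frequent with the WT mother (5.03% and 2.72%).

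The epithelial sodium channel, through which the newborn lung takes up its liquid, was lower in all 3 of its subunits. Scnn1g was at 8.74 and 8.71 at E18.5, then 10.01 and 8.96 at PN0. Scnn1a was at 7.68 and 7.37 and then at 8.46 and 7.54, and Scnn1b at 5.62 and 5.76 and then at 6.80 and 5.73. Only Scnn1g met the rule, since Scnn1a was under 2-fold apart and Scnn1b under the brightness limit. In each subunit the WT array was higher after birth, and the other array was at most 0.24 above its E18.5 value. The sodium pump subunit gene Atp1b1 was at 11.84 and 11.40, and the water channel gene Aqp5 of type I cells at 10.43 and 10.09. Over 16 measured genes of fluid clearance the median difference was -0.03, with 3 genes 1.5-fold lower and 1 higher. Over all genes the shares were 2.88% lower and 4.16% higher.

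Other genes of the epithelial surface were lower too. Cldn4, a claudin of tight junctions, was at 8.74 and 7.74, Scel, a protein of type I and squamous cells, at 8.63 and 7.23, and Eps8l2, an actin regulator, at 7.90 and 6.89. Scel was already apart at E18.5 (7.96 and 7.12). The type I cell list had a median of -0.23 over 13 genes, of which 1 was 1.5-fold lower and 0 higher. Its gene of the tight junction protein Cldn18 was at 10.98 and 10.47.

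Hpgd, which inactivates prostaglandins in the lung, was at 7.92 and 7.72 at E18.5, then 9.23 and 7.57 at PN0 (3.16-fold lower). Ptgis, the prostacyclin synthase, was at 8.82 and 7.76 at PN0 after 7.92 and 7.72. The inducible cyclooxygenase gene Ptgs2 lay the other way, at 4.06 and 5.94, as did the synthase gene Ptges (4.13 and 4.98) and the receptor gene Ptger3 (4.81 and 5.84). All 3 were dim and were already higher with the Abcb11-/- mother at E18.5, by 0.99, 0.52 and 0.61. Over averaged probe sets their PN0 differences were 1.03, 0.12 and 0.61.

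Signals of vessels and growth included Bmp6, a bone morphogenetic protein (6.53 and 6.41 at E18.5, 7.93 and 6.41 at PN0), and Tmem100, an endothelial gene that BMP signalling induces (7.62 and 7.61, then 9.79 and 8.67). The lymphatic growth factor gene Vegfc was at 8.13 and 7.12. In the endothelial list Aplnr, the apelin receptor gene, was at 10.36 and 9.70 and Tek, an angiopoietin receptor gene, at 9.34 and 8.67, while the ligand gene Apln was higher with the Abcb11-/- mother (5.15 and 6.59). Of the 22 genes, 3 were 1.5-fold lower and 1 higher (against 2.88% and 4.16% of all genes), with a median of -0.11.

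Several neutrophil and acute phase genes were lower with the Abcb11-/- mother at PN0. Mmp8, the neutrophil collagenase, was at 4.42 and 4.94 at E18.5, then 7.59 and 6.10 at PN0. Serpina3n, a protease inhibitor, went from 4.14 and 4.26 to 7.05 and 5.24 (3.50-fold lower). Saa3, a serum amyloid A gene, was at 6.80 and 9.37 at E18.5, then 7.73 and 6.67 at PN0, and so was the single member 2-fold apart in the opposite direction at E18.5. At E17.5 the single such member was Apold1, which was dim there (4.55 and 3.55). Of 14 measured neutrophil genes 7 were 1.5-fold lower, Mmp8 included, and 0 higher (against 2.88% and 4.16% of all genes). The list median was -0.58 (0.24 at E18.5). The calprotectin genes S100a8 (10.90 and 10.21) and S100a9 (10.72 and 10.06) were among the 7. Lcn2, also bright, lay the other way within 1.5-fold (8.54 and 8.95). The granule genes Mpo, Elane and Prtn3 were dim on both arrays, between 3.12 and 3.54. The summed level of the list was 10.34 and 11.06 at E18.5 and 12.29 and 11.71 at PN0, higher after birth with either mother.

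The other lower genes were the creatine transporter gene Slc6a8 (8.64 and 7.56), the amino acid transporter gene Slc43a2 (7.47 and 6.11), and Stmn2 (8.17 and 6.78), Klc3 (7.45 and 6.04) and Tppp3 (9.36 and 8.33), which act on microtubules. The hyaluronan-related gene Cemip2 was at 9.99 and 8.87, the adhesion receptor gene Adgrl3 at 7.41 and 6.31 and the nuclear membrane gene Tmem43 at 7.39 and 6.07. Fam189a2 (8.82 and 7.62) and 9930012K11Rik (7.31 and 6.24) completed the 28. Averaging all probe sets brought Adgrl3 to -0.59, Cemip2 to -0.65, Slc43a2 to -0.86 and Scel to -0.71, all from differences beyond -1, and Angptl4 to -1.26.

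Set against E18.5, the 2-fold gaps at PN0 lay mostly on the WT side in the lower genes, while the higher genes were divided. This is a description of where each gap lies, since the PN0 arrays enter both the rule and the step from E18.5. In 21 of the 51 higher genes the WT array was at least 2-fold below its E18.5 level and the Abcb11-/- array not 2-fold above its own, and in 2 of these (Ppp1r3b and Ppp1r3c) the Abcb11-/- array was 2-fold below as well. In 15 the Abcb11-/- array was at least 2-fold above its E18.5 level and the WT array not 2-fold below its own, and in 5 of these (Nr4a1, Atf3, Apold1, Fos and Ccn1) the WT array was 2-fold above as well. Gem met both conditions, and 14 genes met neither, among them Edn1, whose WT array was 2-fold above its E18.5 level. The early-response group held 12 of the 15. Of the 28 lower genes, 22 had the WT array at least 2-fold above its E18.5 level, of which Tmem100 and Mmp8 had the Abcb11-/- array 2-fold above too, 1 (Saa3) had the Abcb11-/- array at least 2-fold below, and 5 had neither. The Abcb11-/- array was nearer to its own E18.5 value than the WT array to its own in 33 of the 51 higher and 27 of the 28 lower genes. The share of all genes for which this held was not counted, so the 33 and 27 are not read as a trait of the members. Of all 17097 genes, 6.46% were 1.5-fold lower and 5.03% higher at PN0 than at E18.5 with the WT mother. With the Abcb11-/- mother the shares were smaller, at 3.64% and 2.72%, so more frequent steps with the WT mother were not particular to the members.

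**Figure D3:**
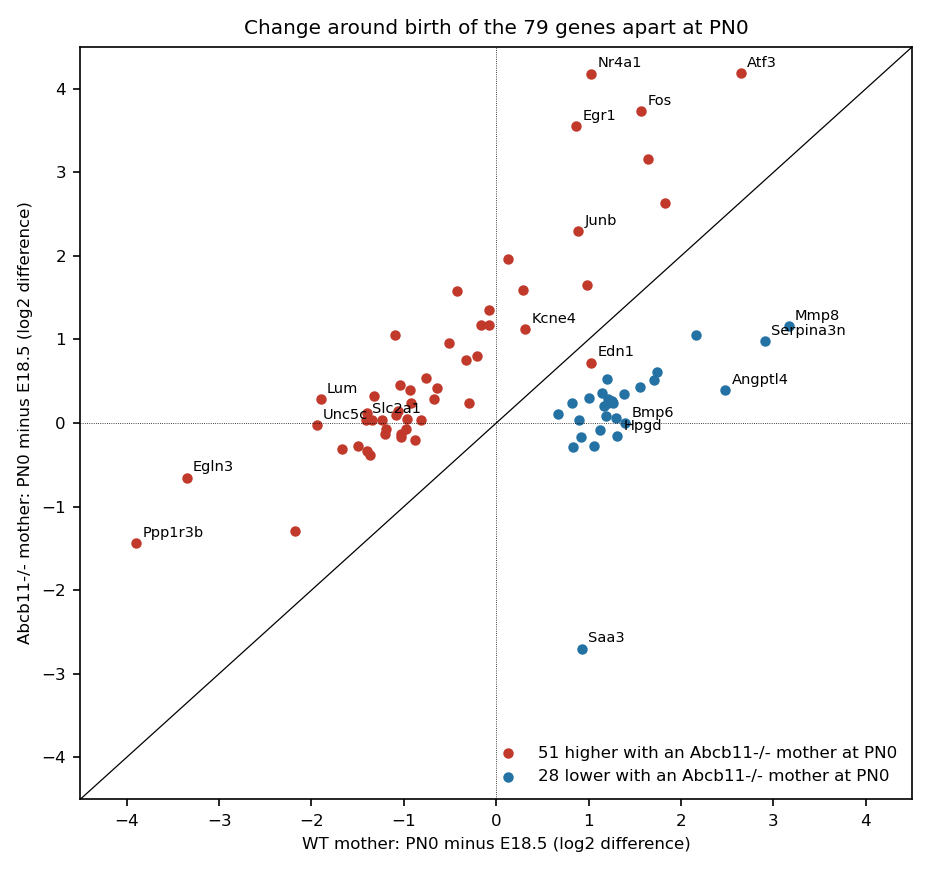
Step across birth (PN0 minus E18.5) of the 79 genes as a log2 difference, with the Abcb11-/- mother (vertical axis) against the WT mother (horizontal axis), red for the 51 genes higher and blue for the 28 lower at PN0. The points lie off the diagonal because the rule asks for it, most of them in horizontal bands near 0 on the vertical axis to the left and right, with the early-response genes such as Atf3 and Fos in a separate cloud at the upper right.

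The same arrays read without the rule, as the step around birth of each mother alone, did not share an array between the 2 mothers. At a limit of 2-fold, 79 of 5528 bright genes (1.43%) were lower at PN0 than at E18.5 with the WT mother and 107 (1.94%) were higher. With the Abcb11-/- mother 18 of 5507 (0.327%) were lower and 68 (1.23%) higher. For the 79 genes that were lower with the WT mother, the median step was -1.20 with that mother and -0.35 with the Abcb11-/- mother, and for the 107 that were higher it was 1.31 and 0.77. For the 18 genes that were lower with the Abcb11-/- mother, it was -1.27 with that mother and -1.42 with the WT mother, and for the 68 that were higher 1.39 and 1.06. A gene picked for a large step on one pair of arrays tends to have a smaller one on another pair, so the 18 genes are the case where the other mother's step was the larger. Of the 79 genes, 65 had the same sign of step with either mother, and of the 107 genes, 103 did. Litters of one mother at the 2 stages are different animals, and how long after birth each litter was taken is not stated for the arrays.

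Markers of other cell types moved with these groups. Heart muscle genes are also expressed by the sleeve around the pulmonary veins of a mouse lung. With the Abcb11-/- mother 11 of 20 were 1.5-fold higher and 0 lower (against 4.16% and 2.88% of all genes), with a median of 0.60. Most of the list was dim, with 6 of the 20 at a log2 value of 7 or more on the brighter PN0 array. Of the 11, 1 was Myh7, which the rule had already taken up. Their summed level was 11.69 and 11.77 at E18.5 and 10.95 and 11.53 at PN0, so that it was lower after birth mainly with the WT mother. The atrial myosin light chain gene Myl7 was at 8.39 and 9.24 and the troponin gene Tnni3 at 5.25 and 6.49, whereas the natriuretic peptide gene Nppa (2.98 and 3.11) and the ventricular light chain gene Myl2 (3.81 and 3.98) were near the array median. Pgam2 (5.21 and 6.84) and Pygm, both muscle forms of their enzymes, stand on the glucose lists, and the part of muscle in those lists was not tested.

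Blood and liver markers were checked on the same arrays. Of 8 platelet genes 3 were 1.5-fold lower and 0 higher (against 2.88% and 4.16% of all genes). Their median was -0.47, and the summed level was 9.42 and 9.13. Erythroid genes had a summed level of 13.80 and 13.78. Most of it came from the globin gene Hba-a1 (13.56 and 13.54), the highest value on each array, so the sum could hardly show a difference. Of the 12 measured genes 1 was 1.5-fold higher, the embryonic globin gene Hbb-y (4.29 and 6.08, after 5.81 and 7.54 at E18.5), and 0 were lower. Of 17 hepatocyte genes 1 reached a log2 value of 7 in the newborn lung, the transferrin gene Trf (10.85 and 11.40). Trf made up most of the summed level of 11.04 and 11.58, which therefore says little of the other hepatocyte genes. The albumin gene Alb was at 5.38 and 6.66, after 8.69 and 8.74 at E18.5. At 1.5-fold 3 of the 17 were higher and 1 lower. The part of these cells in the differences was not tested.

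Genes of the response to endoplasmic reticulum and amino acid stress were 1.5-fold higher with the Abcb11-/- mother in 7 of 30 and lower in 1. Over all genes the shares were 4.16% and 2.88%, and the list median was 0.32 (0.11 at E18.5). Of the 7, 2 were the early-response members Atf3 and Ppp1r15a, and another was the asparagine synthetase gene Asns (6.17 and 6.90). The chaperone gene Hspa5 (9.93 and 10.25) and the transcription factor gene Xbp1 (10.45 and 10.64) were within 1.5-fold.

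Smooth muscle genes had a median of 0.44, with 3 of 10 measured genes 1.5-fold higher with the Abcb11-/- mother and 1 lower. Cell cycle genes had a median of 0.31, with 6 of 34 higher and 0 lower. Over all genes the shares were 4.16% and 2.88%. The lists that follow had medians near 0. Surfactant and type II cell genes had a median of 0.04 over 18 genes, with 2 1.5-fold higher (Scd1 and Slc27a2) and 0 lower. Genes of the heat shock response (0 of 12) and of the NRF2 and metal response (0 of 15) were within 1.5-fold in either direction. Of 32 measured genes of bile acid transport, synthesis and sensing, 0 were 1.5-fold apart, and the median was 0.01. Most of these were dim, with 2 of 32 at a log2 value of 7 or more, so a difference in them could hardly be seen. The uptake carrier gene Slco3a1 was at 8.39 and 7.86, and the gene of the bile acid receptor Nr1h4 at 2.91 and 2.91.

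**Figure D4:**
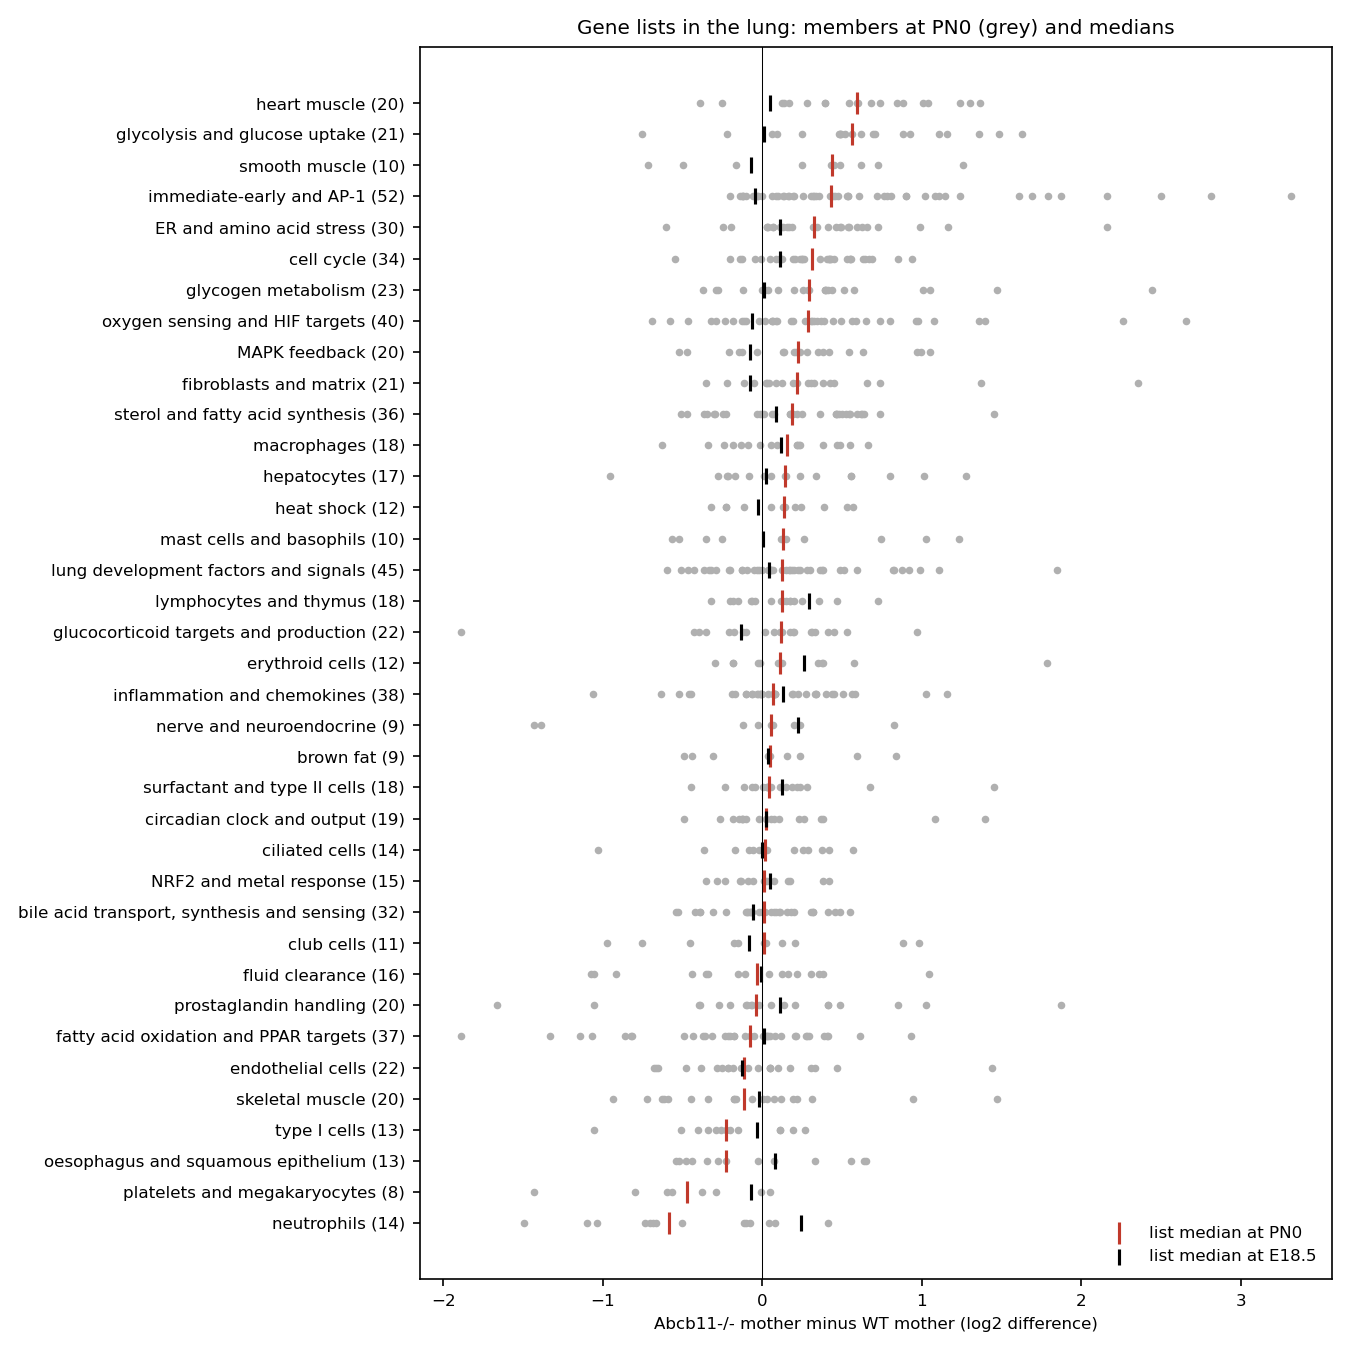
Log2 difference at PN0, Abcb11-/- mother minus WT mother (horizontal axis), of each measured gene of 37 lists (grey points, number of genes in brackets), with the list median at PN0 in red and at E18.5 in black. Medians at PN0 run from -0.58 for neutrophil genes to 0.60 for heart muscle genes, and those of the glycolysis, smooth muscle and immediate-early lists stand furthest to the right after heart muscle.

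The limits of the rule cut through a continuous range. Just inside the fold were Ppp1r3c (1.01) among the higher and Cldn4 (-1.004) among the lower genes. Just outside were Efemp1, a matrix protein gene of the fibulin family (6.52 and 7.51, a difference of 0.99), and Ppl, the gene of the desmosomal protein periplakin (7.67 and 6.68, -0.99). Below the brightness limit, 93 genes were higher and 55 lower by 2-fold or more, with the aldolase gene Aldoc (5.50 and 6.99, a difference of 1.49 that was 0.87 over averaged probe sets) closest to it, while Serpina3n was the member closest above. In 29 of the 51 higher genes the WT array was below 7 and in 12 of the 28 lower genes the Abcb11-/- array was.

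Other probe sets of the same genes gave a check that the rule did not use, on the same 2 RNA samples. They numbered 25 for 19 of the higher genes, of which 24 had the same sign and 18 were 1.5-fold higher. For 11 of the lower genes there were 18, of which 16 had the same sign and 12 were 1.5-fold lower. The 8 and 4 of these that reached a log2 value of 7 were all at least 1.5-fold apart in the same direction.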

How the data were processed

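RNA of lung tissue was labelled by the 3′ IVT Express protocol and hybridized to Affymetrix mouse HT MG-430 PM plate arrays. Signals were reduced by the authors to 1 value per probe set with robust multiarray averaging (RMA). Partek 6.5 is credited in the submitters' processing notes. The values, deposited on the log2 scale without detection calls, were taken unaltered. Lung arrays had medians of 3.63 to 3.68, and levels of lung and liver were not compared. Precision is limited by how few arrays there are.

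The platform table gave 1 gene for 28898 of 45037 probe sets, several for 551 and none for 15588, and 28689 were updated through their gene number. For each of 17097 genes the probe set with the highest mean over the 6 lung arrays was kept. Differences are the value with the Abcb11-/- mother minus that with the WT mother. Lists were counted at 1.5-fold over all measured genes, and the counts include genes that the 2-fold rule had taken up. No test was made, with 1 array for each mother. The members, the 38 gene lists and the functional groups were chosen with earlier results of these data known. All 79 members may be named, with up to 6 measured genes of each list by size of difference, genes the study names and relatives needed to describe a list. Other list genes, such as Klf4, Hif1a, Adm, Ager and Scgb1a1, were named after their values were seen. Steps were run in Python 3.11.15 with pandas 2.3.3 and numpy 2.4.6. The rule was also run on simulated data, with a smaller spread than between these arrays and planted changes larger than those of most members. That run says nothing of false calls near the 2-fold limit. Alternatives were averaged probe sets, quantile normalization, median centring, other brightness limits and other folds. Control probe sets were not used here, so RNA quality was not checked. Promoter windows are from RefSeq (GRCm38.p6).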

Additional observations from a re-analysis of the deposited data

Results flagged for a closer look

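Saa3, a serum amyloid A gene, drew attention because its maternal difference turned round between 2 stages. It was 2.56 higher on the log2 scale with the Abcb11-/- mother at E18.5 and -1.06 at PN0. Each stage has 1 array per mother, so this difference was not tested.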

How the results depend on the processing

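The main rule gave 51 higher and 28 lower genes. With a brightness limit of 6 there were 85 higher and 51 lower, with a limit of 8 there were 28 and 18, and with no limit 144 and 83. A fold of 1.5 gave 182 and 156, and a fold of 3 gave 16 and 3. Asking for a mean of 7 or more over the 6 lung arrays, an alternative chosen after seeing the data, gave 40 and 16. Averaged probe sets gave 40 and 23, quantile normalization 49 and 27, and median centring 51 and 27, and the median difference of all genes stayed between 0.00 and 0.02. Of the genes found by the main rule, 40 and 21 were shared with averaged probe sets, and 47 and 27 with quantile normalization. The medians of all 38 lists moved by less than 0.33, the spread of a difference between 2 livers of 1 genotype, under these 3 alternatives. Of 265 gene differences, 35 moved by more than that with averaged probe sets and 0 with the other 2, and none that was 1.5-fold apart changed sign. No paired analysis was possible because each mother has 1 array at PN0 and no test was made.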
